A study of Drosophila melanogaster with 12 samples.

Results

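The insect cuticle is an extracellular coat of chitin fibres embedded in protein, laid down by epidermis and by other ectodermal epithelia such as trachea, foregut and hindgut. Most of its proteins carry the Rebers-Riddiford consensus, a stretch that binds chitin, and in Drosophila the genes for them are named Cpr, Lcp (larval cuticle protein), Ccp84, Pcp (pupal cuticle protein), Edg (ecdysone-dependent gene) or Acp (adult cuticle protein). Tweedle proteins (Twdl) form a separate insect cuticle family. Each moult uses its own set of these genes, switched on and off in sequence by pulses of the steroid ecdysone and the nuclear receptors it induces.

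Cuticle protein genes were chosen by the start of the gene symbol in the authors' deposited annotation, as Cpr, Lcp, Ccp84, Twdl, Edg78, Edg84, Edg91, Acp65 or Pcp, with the probe set of the highest mean over all arrays standing for a gene. This gave 114 entries, each named by a symbol or a pair of symbols and called genes below, out of 18769 probe sets that are no array controls. A further probe set named plainly Cpr is annotated as the cytochrome P450 reductase and was left out. Of the 114, 108 name 1 gene and 6 name 2 genes, and for those the signal of the genes cannot be told apart. Cpr67Fa1, Cpr67Fa2, Lcp65Ab2 and TwdlB each have an entry of their own and a shared one, so the counts hold them more than once. Of the 114, 42 reached a log2 level of 4 on at least 3 of the 12 arrays and are described here. Another 60 stayed under that level on every array, and 12 reached it on 1 or 2 arrays. Just inside the limit lay Cpr35B, TwdlT and Cpr62Bc, whose 3 highest arrays went down to 4.12, 4.44 and 4.69. Just outside lay TwdlBeta, Cpr66Cb and Cpr64Ab, with 3.67, 3.61 and 3.47.

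The arrays, Affymetrix Drosophila_2, measured total RNA from larvae of the last stage before the pupa (L3), grown at 25 °C, in 4 groups of 3. Control wing discs carried the driver nub-Gal4 alone, and the compared discs carried nub-Gal4 with UAS-MiT, a transgene for MiT, the single fly member of the MITF/TFE transcription factors. The driver is active in the wing-forming part of the disc and not in the whole organ. Hindgut together with Malpighian tubules came from wild type (WT) or from MiT mutants with the genotype MiT TZ2 over the deficiency Df(4)TZ, titled EMSTZ2. The genetic background, the hours after the last moult and the number of animals per sample are not given in the sources used here, nor whether replicates were separate cultures. The p-values therefore cover the spread between these arrays, which may be technical. The stated aim of the series was to find loci raised by gain of MiT in the disc and lowered by its loss in hindgut and tubules.

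The MiT probe set, listed as Mitf, read 7.05, 6.55 and 6.16 on the wild-type hindgut-tubule arrays and 4.54, 4.19 and 4.51 on the mutant ones, a 4.51-fold fall (limma adjusted p = 0.00919). It read 7.93, 7.91 and 8.15 in control discs and 8.02, 8.11 and 8.21 in discs with the transgene (limma adjusted p = 0.372). The array thus showed no rise of Mitf there, whether the probe set covers the transgene is not given, and these samples are called labelled MiT discs below. Markers of each tissue were read against the labels. Of 6 hindgut markers, 4 were higher in wild-type hindgut-tubule samples and 1 in control discs (limma adjusted p under 0.05). Their summed log2 levels overlapped, at 12.70 to 13.44 against 12.95 to 13.18. Among them byn, a hindgut transcription factor, read 7.13 to 7.82 in wild-type hindgut-tubule samples and 2.46 to 2.48 in control discs. Uro, urate oxidase of the tubule, read 13.37 to 14.92 against 2.25 to 2.55. The wing selector vg read 10.12 to 10.50 in control discs and 2.54 to 2.71 in wild-type hindgut-tubule samples. By the same test 5 of 5 tubule markers were higher in wild-type hindgut-tubule samples and 6 of 6 wing disc markers in control discs. Among all probe sets tested 30% and 47.6% were so.

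Every wing disc array held more cuticle genes at log2 4 or more than 5 of the 6 hindgut-tubule arrays did. Of the 114 genes, 35, 40 and 35 reached log2 4 on control disc arrays 1, 2 and 3, and 40, 39 and 41 on the labelled MiT disc arrays. The counts were 12, 36 and 23 on the wild-type hindgut-tubule arrays and 22, 25 and 21 on the mutant ones. Wild-type array 2 thus stood apart from both other arrays of its group and overlapped the discs. On all 3 arrays of a group, 34 genes were at the level in control discs, 39 in labelled MiT discs, 12 in wild-type and 18 in mutant hindgut-tubule samples. Over all probe sets the share at the level on all 3 arrays was 40.8%, 40.9%, 40.1% and 39.7% in the same order.

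**Figure D1:**
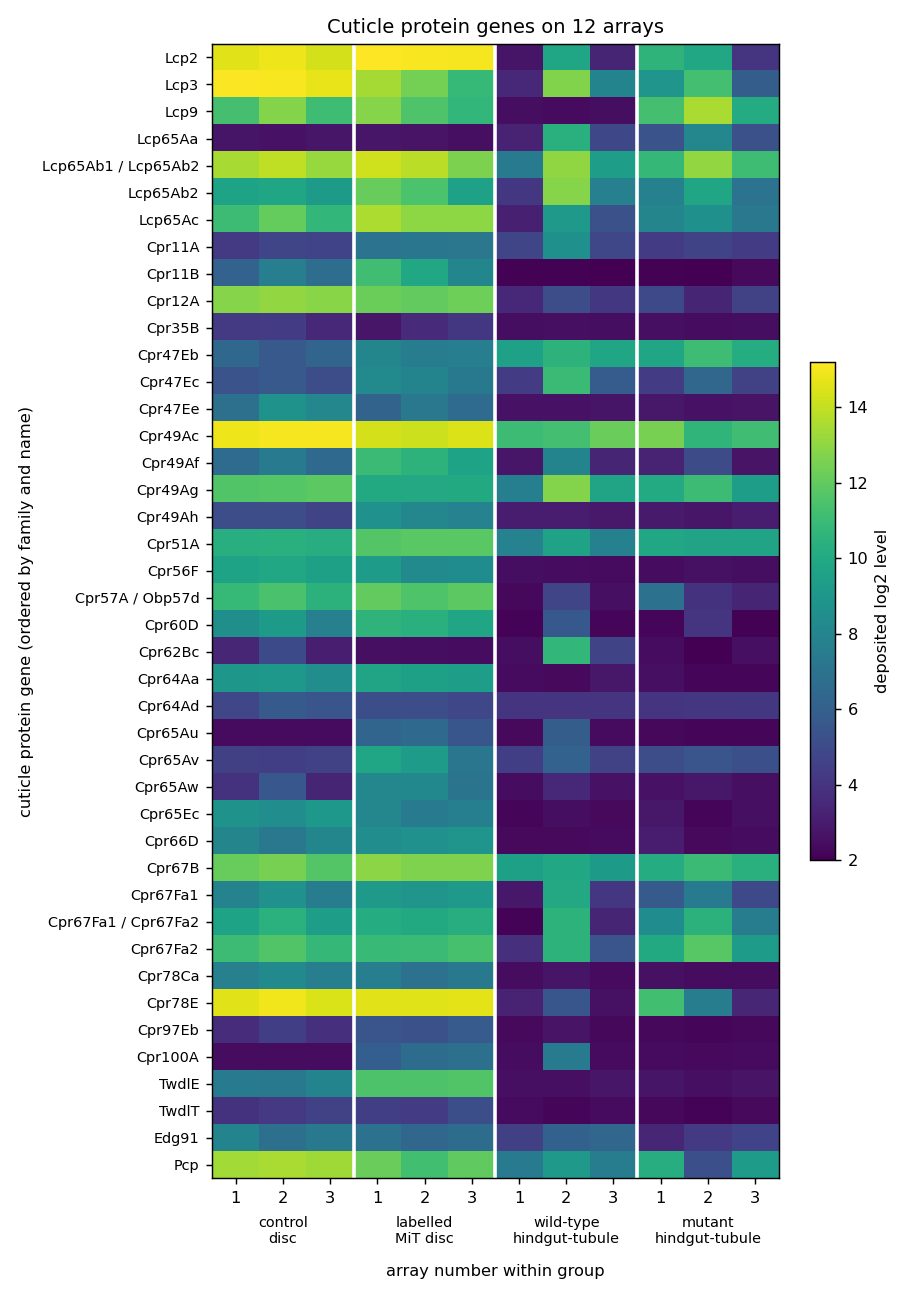
Deposited log2 level (colour, from 2 to the highest value shown) of the 42 cuticle protein genes, in rows by family and name, on the 12 arrays, in columns by group; white lines part the groups. The disc arrays are bright in most rows, hindgut-tubule arrays are dark in most, and wild-type hindgut-tubule array 2 is brighter than its neighbours in many rows; colour is comparable along a row, not between rows.

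The gene families differed in how many members were measured at all. Of the 12 Lcp genes 7 reached the level on 3 arrays, and of the 68 Cpr genes 31 did. Of 24 Tweedle genes only TwdlE and TwdlT did, and of 5 Ccp84 genes none. Edg91 and Pcp did so among the 5 Edg, Pcp and Acp65A genes. Acp65Aa, an adult cuticle gene, and Edg78E and Edg84A, pupal genes that ecdysone controls, stayed under it. Lcp1 and Lcp4 share their probe sets with another gene symbol that comes first in the annotation, so the rule left them out. Both read high in every disc, at 15.28 to 15.51 for the Lcp1 probe set and 14.88 to 15.18 for that of Lcp4.

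The first comparison set control discs against wild-type hindgut-tubule samples and gave the tissue pattern of the genes. Of the 42 genes, 30 were higher in control discs, 1 was higher in wild-type hindgut-tubule samples and 11 did not pass the test (limma, all 12 arrays in 1 fit, adjusted p under 0.05). Among all 8678 probe sets tested 47.6% were higher in the disc and 30% lower. The groups did not overlap, with the disc higher, for 28 genes and, with the disc lower, for 2, against 50.5% and 31.4% of all probe sets. The median log2 difference was 3.01 over the cuticle genes and 0.34 over all probe sets. Of the 30, 14 were under log2 4 on all 3 wild-type hindgut-tubule arrays. All of these but Lcp9, which was bright in mutants, passed the filter on dim values only through the discs. A difference was thus built into their inclusion. Cpr60D and the probe set of Cpr57A and Obp57d, over log2 4 on few hindgut-tubule arrays, also needed the discs to pass. Leaving out wild-type array 2, on which many cuticle genes read high, gave 34 higher in the disc. Over all probe sets that fit called 4064 higher, against 4129 with all arrays. The array was set apart by high cuticle readings, so leaving it out by itself raises the disc difference of genes high on it.

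Several genes read high in control discs and far lower on most wild-type hindgut-tubule arrays. Cpr78E, a Rebers-Riddiford protein gene, read 14.61, 14.89 and 14.47 in control discs and 3.28, 5.54 and 2.62 in wild-type hindgut-tubule samples. Cpr12A, of the same family, read 12.80, 13.08 and 12.87 against 3.46, 5.10 and 4.12. Lcp2, a major larval cuticle protein gene, read 14.60, 14.86 and 14.34 against 2.73, 9.75 and 3.34. The groups of these 3 genes did not overlap, although Lcp2 on wild-type array 2 lay closer to the discs than to the other 2 wild-type arrays. With wild-type arrays under log2 4 raised to that level, Cpr12A was at least 364.7-fold higher in the disc (limma adjusted p = 2.08e-08), Cpr78E at least 1131-fold (limma adjusted p = 7.25e-05) and Lcp2 at least 410.6-fold (limma adjusted p = 0.0012). In the fits that left out 1 array the log2 difference of Lcp2 ran from 8.05 without wild-type array 1 to 11.56 without wild-type array 2. In a bulk sample fewer cells of a type and less RNA per cell cannot be told apart.

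A set of 13 genes stayed under log2 4 on all 6 hindgut-tubule arrays: Cpr11B, Cpr35B, Cpr47Ee, Cpr49Ah, Cpr56F, Cpr64Aa, Cpr65Aw, Cpr65Ec, Cpr66D, Cpr78Ca, Cpr97Eb, TwdlE and TwdlT. All of them passed the filter on dim values only through the discs, so a difference was built into their inclusion. Cpr56F read 9.65, 9.90 and 9.48 in control discs, at least 51.2-fold above the level of 4 that stands in for the dim samples (limma adjusted p = 4.66e-10). Cpr64Aa was at least 28.4-fold higher and Cpr65Ec at least 26.6-fold. These genes were dim on wild-type array 2 as well, where other cuticle genes were bright.

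Cpr47Eb ran the other way. It read 9.57, 10.54 and 9.83 in wild-type hindgut-tubule samples, 9.77, 11.08 and 10.17 in mutant ones and 6.39, 5.70 and 6.31 in control discs. Hindgut-tubule arrays were above disc arrays without overlap, 14.3-fold on the means of wild type and control (limma adjusted p = 2.80e-06). Lcp65Aa was under log2 4 on all 6 disc arrays and read 3.26, 10.36 and 4.87 in wild type and 5.36, 8.12 and 5.28 in mutants. Its wild-type values spread so far that the difference from the discs did not pass (limma adjusted p = 0.0536). At the other end, 11 genes were at the level on all 12 arrays, among them Cpr49Ac at 10.66 to 15.03, Cpr67B at 9.21 to 12.91 and Cpr51A at 7.81 to 11.82.

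The second comparison asked which cuticle genes differed in discs labelled as overexpressing MiT. Of 40 genes tested, 20 were higher, 7 lower and 13 not called (limma on the 6 disc arrays, adjusted p under 0.05). Of 7888 probe sets 15% were higher and 17.5% lower. Of the tested cuticle genes 50% were thus higher, while the share lower, 17.5%, equalled the background. The groups did not overlap for 21 genes that were higher and 8 that were lower, against 22% and 28.7% of all probe sets. By size, 15 of the 20 were at least 2-fold higher and 4 of the 7 at least 2-fold lower. The median log2 change was 0.66, against -0.04 over all probe sets, and the median size without sign was 1.10 against 0.22. Cpr100A and Cpr65Au passed the filter only through the labelled MiT discs and had to differ. Cpr65Aw and Cpr97Eb, each with 1 control array over log2 4, also needed the labelled MiT discs to pass.

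**Figure D2:**
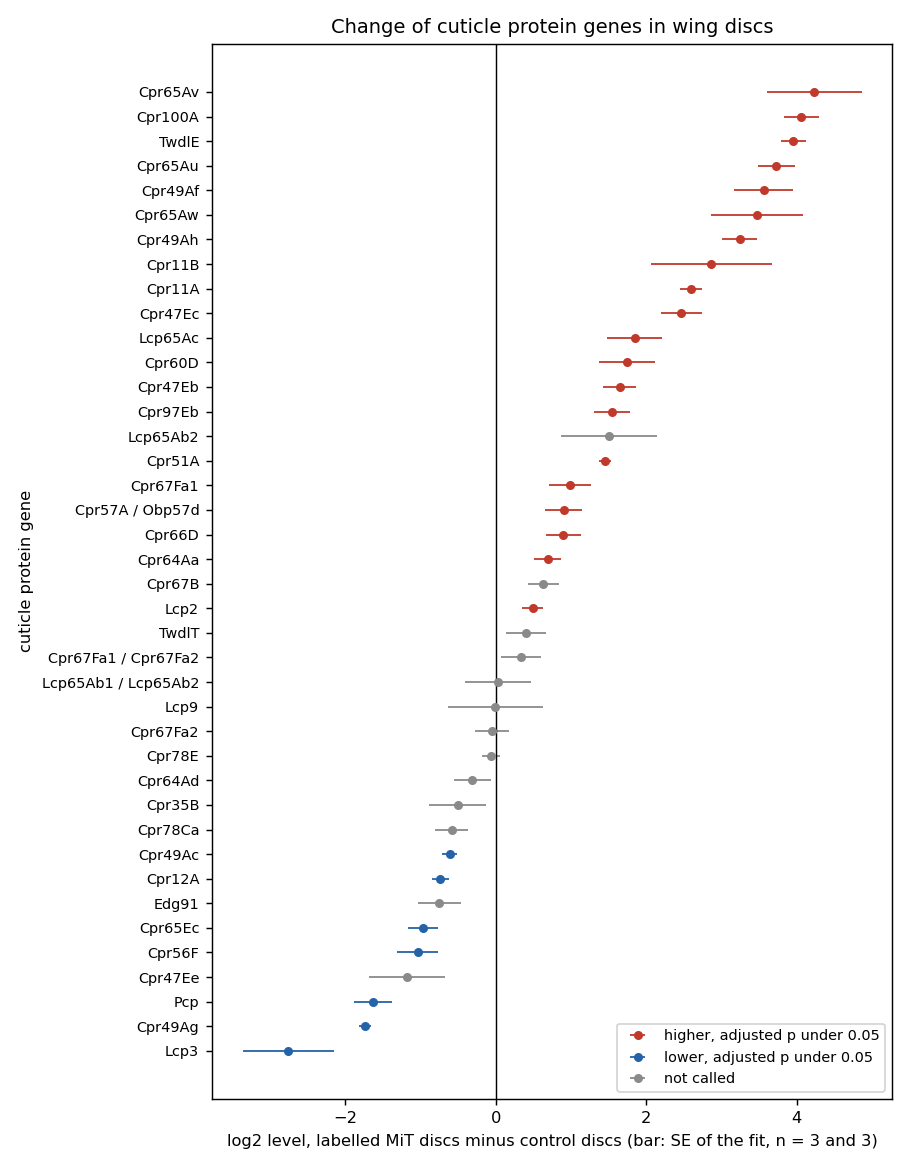
Log2 change of the 40 cuticle protein genes tested in wing discs, labelled MiT discs minus control discs; points are fitted changes, bars the SE of the fit with 3 arrays a group, and colours the call. Changes run from -2.76 for Lcp3 to 4.24 for Cpr65Av, with 20 genes called higher and 7 lower.

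The largest rises included genes at or near the floor in control discs. Cpr65Av read 4.51, 4.45 and 4.54 in control discs and 9.76, 9.24 and 7.21 in labelled MiT discs. Cpr65Aw, which lies next to it on the chromosome, read 3.92, 5.59 and 3.37 against 8.09, 8.16 and 7.05. Cpr65Au, from the same run of neighbouring genes, read 2.39, 2.37 and 2.39 against 6.30, 6.50 and 5.52. In all 3 genes every labelled MiT disc lay above every control disc. The rise was 18.8-fold for Cpr65Av (log2 4.24, SE 0.63; limma adjusted p = 0.00506), at least 9.43-fold for Cpr65Aw, with 1 of 3 control arrays over log2 4 (limma adjusted p = 0.00867) and at least 4.32-fold for Cpr65Au (limma adjusted p = 0.000345).

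These 3 genes belong to a run of 15 neighbouring cuticle genes, each separated from the next by no more than 1 other protein-coding gene in the RefSeq table. It holds the Lcp65A and Cpr65A genes and Acp65Aa, and 7 of the symbols were measured. Lcp65Ac, a larval cuticle gene of the run, read 11.06, 12.08 and 10.76 in control discs and 13.57, 12.96 and 12.93 in labelled MiT discs, without overlap, a log2 rise of 1.85 (SE 0.36; limma adjusted p = 0.0126). Of the 6 symbols of the run tested in discs 4 were higher and 0 lower, against 15% and 17.5% of all probe sets. Of the 4, Cpr65Au and Cpr65Aw needed the labelled MiT discs to pass the filter, so their inclusion favoured a rise. Lcp65Ab2 is counted in the 6 both alone and in a shared entry. Lcp65Ab2 read 9.65, 9.75 and 9.20 against 12.13, 11.46 and 9.53, and the groups overlapped (log2 1.51, limma adjusted p = 0.119). The probe set shared by Lcp65Ab1 and Lcp65Ab2 read 13.47, 13.94 and 13.14 against 14.24, 13.81 and 12.59 (limma adjusted p = 0.963).

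TwdlE had the lowest adjusted p of the 40 genes. This Tweedle gene read 7.45, 7.33 and 7.98 in control discs and 11.51, 11.51 and 11.61 in labelled MiT discs. The groups were far apart and each was tight, with a 15.5-fold rise (log2 3.96, SE 0.17; limma adjusted p = 7.99e-05). The other measured Tweedle gene, TwdlT, read 3.94, 4.18 and 4.55 against 4.44, 4.27 and 5.17, with overlap (limma adjusted p = 0.289). Cpr100A was at the floor in control discs, at 2.46, 2.44 and 2.42, and read 5.94, 6.67 and 6.90 in labelled MiT discs, at least 5.67-fold higher (limma adjusted p = 0.000214).

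Other Rebers-Riddiford genes rose from low or middle levels. Cpr49Ah read 5.12, 5.10 and 4.70 in control discs and 8.69, 8.12 and 7.84 in labelled MiT discs (log2 3.24, limma adjusted p = 0.000443). Cpr11A read 4.25, 4.74 and 4.67 against 7.03, 7.20 and 7.21 (log2 2.60, limma adjusted p = 0.000179). Neither gene's groups overlapped. Cpr11B, named for the same chromosome band, read 6.14, 7.66 and 6.71 against 11.18, 9.85 and 8.07 (log2 2.86, limma adjusted p = 0.0382), also without overlap but with a wider spread. The call for Cpr11B was lost in 5 of the 6 fits that left out 1 array.

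In the Cpr47E run of 7 neighbours, Cpr47Eb and Cpr47Ec were higher and Cpr47Ee was not called. Cpr47Ec read 5.37, 5.68 and 5.13 in control discs and 8.31, 7.96 and 7.31 in labelled MiT discs (log2 2.47, limma adjusted p = 0.00197). Cpr47Eb, the gene with its higher level in hindgut and tubules, rose in the discs from 6.39, 5.70 and 6.31 to 8.08, 7.60 and 7.66 (log2 1.65, limma adjusted p = 0.00364). All labelled MiT discs lay above all control discs for both genes, and for Cpr47Eb they stayed below every hindgut-tubule array. Cpr47Ee read 6.87, 8.71 and 8.09 against 6.20, 7.30 and 6.64, with overlap (log2 -1.18, limma adjusted p = 0.124).

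Cpr51A, bright in both tissues, rose evenly from 10.29, 10.40 and 10.25 to 11.67, 11.82 and 11.81 (log2 1.46, SE 0.08; limma adjusted p = 0.000169). Cpr97Eb read 3.68, 4.47 and 3.81 against 5.48, 5.29 and 5.82, at least 2.59-fold higher with 1 of 3 control arrays over log2 4 (limma adjusted p = 0.00572). Cpr60D read 8.58, 9.18 and 7.77 against 10.56, 10.39 and 9.82 (log2 1.75, limma adjusted p = 0.0167). None of these groups overlapped, and the call for Cpr60D was lost without labelled MiT disc 1 or 2. The smaller rises were Cpr67Fa1 at log2 0.98, Cpr66D at 0.90, the probe set shared by Cpr57A and the odorant-binding protein gene Obp57d at 0.90, Cpr64Aa at 0.69 and Lcp2 at 0.49 (limma adjusted p from 0.0278 to 0.0408). Each of these 5 calls was lost in 2 to 5 of the 6 fits that left out 1 array.

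The genes that fell lay well above the floor in control discs. Lcp3, a major larval cuticle protein gene next to Lcp2, read 15.13, 15.08 and 14.77 in control discs and 13.40, 12.44 and 10.86 in labelled MiT discs. Pcp, a pupal cuticle protein gene that lies inside an intron of a purine synthesis gene, read 13.36, 13.52 and 13.34 against 12.19, 11.19 and 11.95. Cpr49Ag read 11.62, 11.73 and 11.86 against 10.01, 9.99 and 10.01. Every labelled MiT disc lay below every control disc in all 3. Lcp3 fell by 2.76 on the log2 scale (SE 0.60; limma adjusted p = 0.0174, and 0.0518 without control disc 2), Cpr49Ag by 1.73 (SE 0.08; limma adjusted p = 0.000104) and Pcp by 1.63 (SE 0.25; limma adjusted p = 0.00583).

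Smaller falls were seen for Cpr56F, by 1.03 on the log2 scale (limma adjusted p = 0.0316, lost in 5 of 6 fits without 1 array), and for Cpr65Ec, by 0.96 (limma adjusted p = 0.0152, and 0.0506 without labelled MiT disc 3). Cpr12A fell by 0.73 from 12.80, 13.08 and 12.87 to 12.24, 12.04 and 12.28 (limma adjusted p = 0.00492). Cpr49Ac, which read 14.84, 15.03 and 15.02 in control discs, fell by 0.61 to 14.36, 14.21 and 14.50 (limma adjusted p = 0.00731).

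Direct neighbours moved in opposite directions at 2 places. Lcp2 and Lcp3 lie side by side, and Lcp2 read 14.60, 14.86 and 14.34 in control discs and 15.20, 15.06 and 15.01 in labelled MiT discs while Lcp3 fell. Cpr49Af, beside Cpr49Ag, read 6.60, 7.41 and 6.52 against 11.01, 10.54 and 9.65, a log2 rise of 3.56 (SE 0.40; limma adjusted p = 0.00197). The difference between the neighbours' changes was not tested as such.

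Other bright genes were not called. Cpr78E read 14.61, 14.89 and 14.47 in control discs and 14.62, 14.53 and 14.64 in labelled MiT discs (log2 -0.06, SE 0.12; limma adjusted p = 0.718). Lcp9, a larval cuticle protein gene, read 11.30, 12.74 and 11.10 against 12.81, 11.58 and 10.74, groups that overlapped throughout (log2 -0.00, SE 0.63; limma adjusted p = 0.998). Edg91, an ecdysone-dependent pupal cuticle gene, read 7.95, 6.89 and 7.33 against 6.95, 6.34 and 6.64 (log2 -0.75, limma adjusted p = 0.0965). The Lcp1 and Lcp4 probe sets, outside the rule, read 15.28 to 15.41 and 14.88 to 15.07 in control discs and 15.46 to 15.51 and 15.04 to 15.18 in labelled MiT discs.

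Of the 27 disc calls, 17 were kept in all 6 fits that left out 1 array, and none changed sign under any setting. Cpr65Av, Cpr65Aw, TwdlE, Cpr49Ah and Cpr97Eb also kept their call in every other setting that tested them, 7 for Cpr97Eb and 8 for the others. These settings include the adjusted p of the authors' deposited table, which called only these 5. Cpr65Aw and Cpr97Eb had needed the labelled MiT discs to pass the filter. Fitted together with the more variable hindgut-tubule arrays, 12 genes were higher and 2 lower. Leaving out labelled MiT disc 2 left 13 higher.

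Several cell types could accompany a dissected disc, and their markers were read beside these counts. Over all probe sets in the disc fit 15% were higher and 17.5% lower. Of 9 hemocyte markers 6 were higher in labelled MiT discs, with a summed log2 level of 9.23 to 10.28 in control and 11.01 to 11.73 in labelled MiT discs. Of 12 muscle markers 8 were higher, with 16.32 to 16.79 against 16.87 to 17.15. Of 7 tracheal markers tested 4 were higher, with 13.85 to 14.06 against 14.46 to 14.56, while the defining gene trh read 10.15 to 10.49 against 9.74 to 10.27 and btl, another, read 3.78 to 4.72 against 2.39 to 2.56 and was too dim to test. The tracheal list shares 5 of its 9 genes, Gasp, serp, verm, pio and tyn, with the lists of chitin organisation and apical matrix described next, and 3 of the 4 called, Gasp, serp and tyn, are counted there as well. No fat body or salivary gland marker was called, though their summed levels ranged from 12.43 to 14.64 and 6.36 to 16.64 in control discs and from 7.05 to 14.02 and 5.51 to 14.56 in labelled MiT discs. Of 6 wing disc markers 4 were lower, with 13.36 to 13.55 against 13.03 to 13.11. The part of these cells in the cuticle gene counts was not tested.

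Genes that build, organise, tan or break down cuticle or control moulting, listed apart from cuticle protein genes, moved both ways in the discs. Of 59 tested, 21 were higher and 14 lower, and the median log2 change was 0.04. Over all probe sets in the disc fit 15% were higher and 17.5% lower, shares that stand beside each list here. In chitin organisation 7 of 10 were higher and 0 lower. Cda5, a chitin deacetylase, read 4.83, 4.32 and 5.12 in control discs and 7.80, 7.60 and 7.48 in labelled MiT discs, a 7.32-fold rise without overlap (limma adjusted p = 0.000462). The chitin-binding genes obst-E, Gasp and obst-B rose by log2 1.65, 1.08 and 0.92. In chitin synthesis 3 of 7 were higher, among them kkv, the chitin synthase of epidermis and trachea, by log2 0.62 (limma adjusted p = 0.0066), and Oscillin fell by 1.55 on the log2 scale. In chitin breakdown 7 of 14 were higher and 2 lower, led by the chitinase gene Cht7 at log2 1.43 and Idgf6, a chitinase-like gene, at 1.31. Among genes for apical matrix proteins with a zona pellucida domain, tyn was higher and neo lower of 5 tested.

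**Figure D3:**
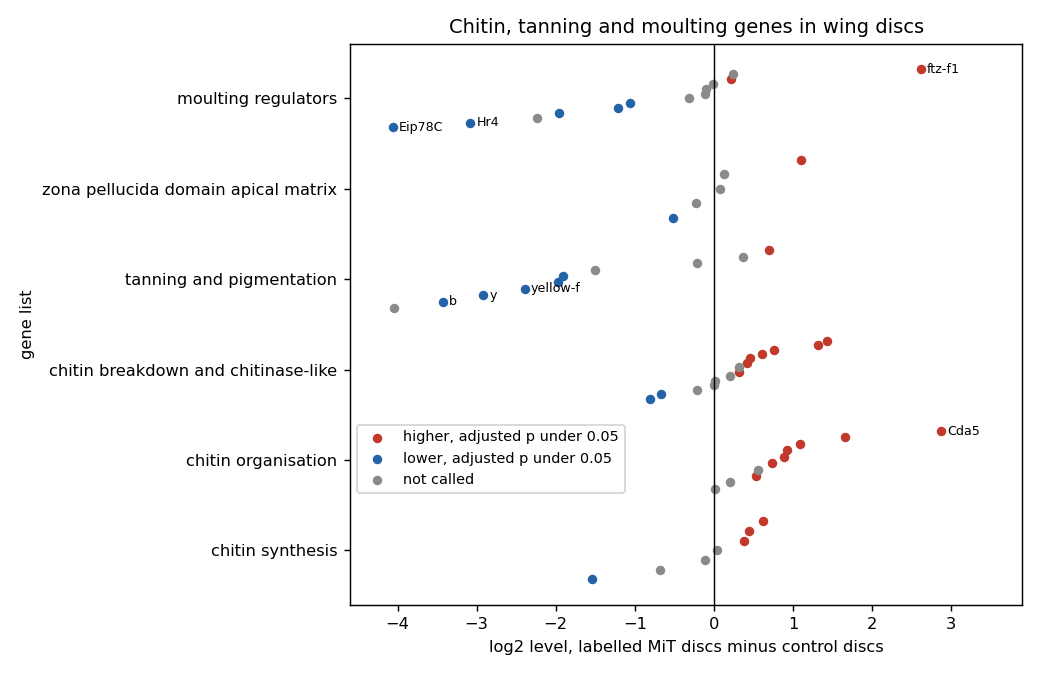
Log2 change in wing discs, labelled MiT discs minus control discs, of 59 genes in 6 lists of cuticle-related functions; each point is 1 gene with its height spread within the list for legibility, and colours give the call. Points of chitin organisation lie right of 0. Called lower are 5 of 10 tanning genes and 5 of 13 moulting regulators, against 17.5% of all probe sets.

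Tanning genes make the catecholamines and pigments that harden and darken new cuticle. Of 10 tested, 5 were lower, 1 was higher and 4 were not called, against 17.5% lower and 15% higher among all probe sets, and the median log2 change was -1.94. The pigment gene y read 13.74, 13.24 and 13.88 in control discs and 10.78, 10.63 and 10.68 in labelled MiT discs (7.55-fold lower, limma adjusted p = 0.000214). Ddc, dopa decarboxylase, read 12.83, 13.42 and 13.43 against 11.26, 11.23 and 11.45 (3.77-fold lower, limma adjusted p = 0.00111). Neither gene's groups overlapped. The genes b and yellow-f fell by 3.43 and 2.39 on the log2 scale, the call for b being lost in 4 of 6 fits without 1 array, and ple, tyrosine hydroxylase, was at least 2.73-fold lower. The straw laccase gene stw was the one called higher, by log2 0.70. Control discs differed among themselves in some tanning genes. The gene e, not called, read 2.90, 12.05 and 12.11 in control discs and 2.42, 9.80 and 2.71 in labelled MiT discs (limma adjusted p = 0.354). Control disc 1 also lay below the other control discs for b, at 10.72, 12.64 and 12.65, and for Pu, not called, at 12.04, 13.94 and 13.72.

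Regulators of moulting were read in the same way. The nuclear receptor gene ftz-f1, which in fly development follows a pulse of ecdysone, read 4.69, 4.58 and 4.48 in control discs and 6.86, 7.30 and 7.44 in labelled MiT discs (6.13-fold higher, limma adjusted p = 0.000237). Eip78C, an ecdysone-induced receptor gene, read 6.87, 8.15 and 8.72 against 2.49, 5.05 and 4.01 (limma adjusted p = 0.00985), and Hr4 read 7.05, 7.99 and 8.41 against 3.50, 5.47 and 5.24 (limma adjusted p = 0.0119). The groups did not overlap for any of the 3. Of 13 regulators tested, 2 were higher and 5 lower, against 15% and 17.5% of all probe sets. The lower ones also included Blimp-1, a repressor of ftz-f1, at least 2.03-fold lower, and br and Eip75B, early ecdysone genes, by 1.21 and 1.06 on the log2 scale. A difference in developmental age between the disc groups was not tested.

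The third comparison asked which cuticle genes differed in hindgut and tubules of MiT mutants. Of 23 genes tested, 1 was higher in mutants and 0 were lower (limma on the 6 hindgut-tubule arrays, adjusted p under 0.05), against 2.42% and 2.14% of 7887 probe sets. At an unadjusted limma p under 0.05, 3 were higher and 1 lower. The share of all probe sets at that threshold was not counted, so these 2 counts have no background to be read against. With the replicate number as a block, Edg91 was called lower. The other 19 genes were too dim here to be tested. The median log2 change was 0.36 over the 23 and 0.00336 over all probe sets.

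Lcp9 was the gene called. It read 2.49, 2.39 and 2.51 in wild-type samples and 11.32, 13.50 and 10.10 in mutants. All mutant arrays were bright and all wild-type arrays at the floor, including wild-type array 2. Lcp9 passed the filter on dim values only through the mutants, so that a difference was built into its inclusion. The rise was at least 199.9-fold (log2 9.18, SE 0.82; limma adjusted p = 0.00334). In both disc groups Lcp9 was bright on every array, at 10.74 to 12.81, and the mutant hindgut-tubule arrays overlapped that range.

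The wild-type hindgut-tubule arrays differed among themselves in cuticle genes. On wild-type array 2, 24 of the 114 genes, 21.1%, read at least 2 log2 units above both other wild-type arrays, against 143 of all probe sets, 0.762%. On wild-type array 3 the counts were 0 genes and 118 probe sets, and on wild-type array 1 they were 0 and 3. On mutant arrays 1, 2 and 3, 2, 4 and 0 cuticle genes stood out so, against 16, 758 and 14 probe sets. On no disc array did a cuticle gene stand out so.

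**Figure D4:**
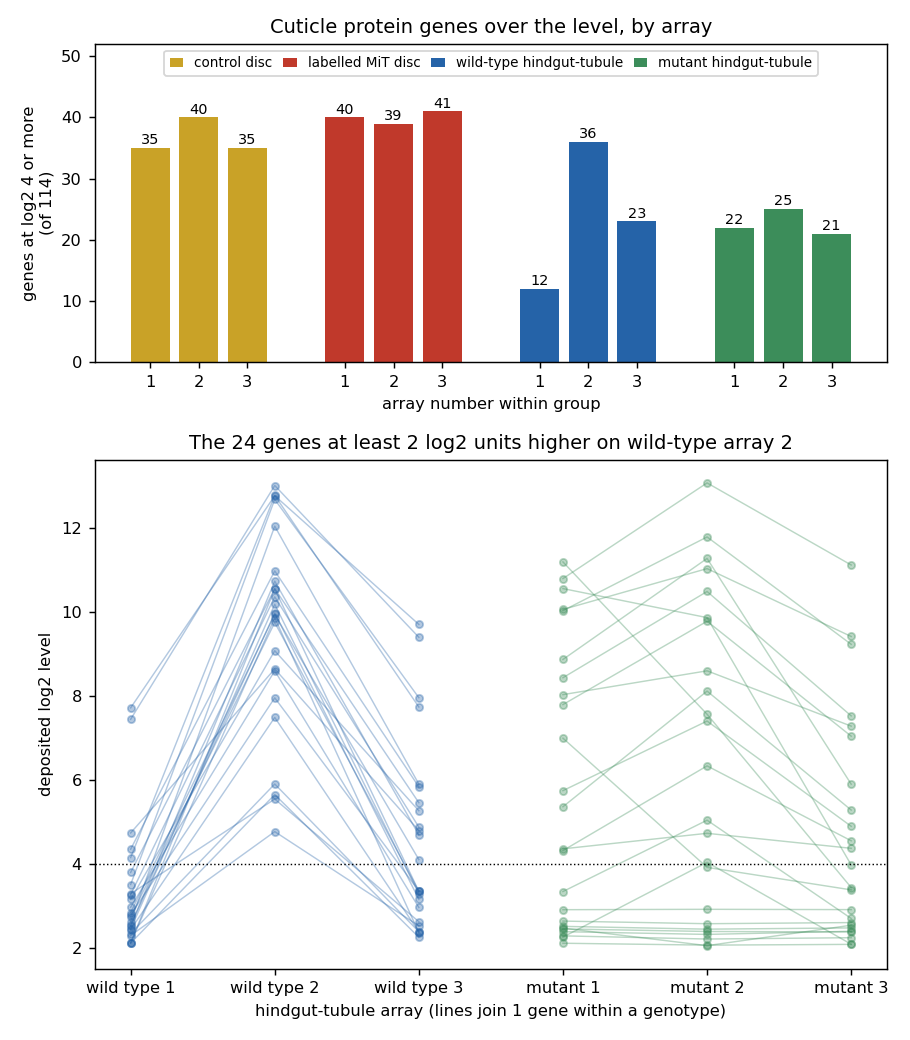
Top, number of the 114 cuticle protein genes at log2 4 or more on each array (bars, by group). Bottom, deposited log2 levels of the 24 genes at least 2 log2 units higher on wild-type hindgut-tubule array 2 than on both other wild-type arrays, where points are single arrays, lines join 1 gene within a genotype and the dotted line is the level of 4. Array 2 carries 36 genes against 12 and 23 on the other wild-type arrays. The 24 genes were chosen for their height on it, and some, such as Cpr78E, read higher on mutant arrays.

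The 24 genes came from the Cpr, Lcp and Tweedle families and included genes over log2 4 on no other array. TwdlX read 9.86 on wild-type array 2 and 2.11 and 2.36 on the other wild-type arrays. Lcp65Ag2 read 10.18 there against 2.44 and 3.28, and Lcp65Ag3 9.97 against 2.54 and 3.15. These 3, with Cpr47Eg and the probe set of Ccp84Aa and Ccp84Ab, were the 5 genes bright on that array alone of all 12. The probe set of Cpr65Ax1 and Cpr65Ax2 read 2.62, 12.05 and 5.90 in wild type and at most 2.63 in either disc group, and with Cpr49Ae and TwdlG it was bright on wild-type arrays 2 and 3 only.

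Other lists were read on the same arrays. The summed chitin organisation list read 12.33, 13.09 and 12.17 on wild-type arrays 1, 2 and 3, with Gasp at 7.38, 10.28 and 7.80 and obst-A at 5.44, 8.80 and 5.93. The summed levels were 12.76, 13.00 and 12.63 for trachea, with trh under log2 4 on all of them, 16.03, 17.21 and 16.53 for fat body, 16.27, 16.41 and 16.31 for muscle, and 9.18, 9.17 and 9.76 for hemocytes. The wing disc list read 10.13, 9.87 and 9.83, with vg at the floor. The midgut list read 9.12, 6.84 and 9.19, the hindgut list 13.44, 12.70 and 13.19 and the tubule list 15.08, 15.86 and 15.21. Wild-type array 2 also held the lowest sum of its group for the moulting and tanning lists. Moulting regulators read 13.96, 13.60 and 13.92 in wild type and 14.10, 13.78 and 14.00 in mutants, with Hr4 at 4.53, 3.64 and 6.96 against 7.11, 2.59 and 6.03 and Eip78C at 3.93, 3.21 and 5.26 against 6.86, 2.82 and 5.92. Tanning genes read 11.83, 11.46 and 11.87 in wild type and 11.50, 11.67 and 11.28 in mutants, with Ddc at 8.96, 6.19 and 9.46 against 7.91, 5.29 and 4.47. Both moulting genes were thus lowest on the number 2 array of each genotype. Whether other tissue or a different age of animal entered that sample was not tested.

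Without wild-type array 2 the counts changed from 1 to 4 genes higher in mutants, and 0 were lower. Over all 7887 probe sets that fit called 168 higher and 136 lower, against 191 and 169 with all arrays. Wild-type array 2 was set apart by high cuticle readings, so leaving it out by itself raises the mutant difference of genes high on it. Cpr51A read 7.88, 9.60 and 7.81 in wild type and 9.93, 9.68 and 9.71 in mutants, a log2 rise of 1.34 that did not pass with all arrays (limma adjusted p = 0.21) and of 1.93 without that array (limma adjusted p = 0.00647). Cpr67Fa2 read 3.79, 10.56 and 5.45 against 10.03, 11.79 and 9.23 (limma adjusted p = 0.32 with all arrays, 0.0466 without). The probe set shared by Cpr67Fa1 and Cpr67Fa2 read 2.11, 10.55 and 3.34 against 8.44, 10.49 and 7.53 (limma adjusted p = 0.476 and 0.046). In these genes the mutant arrays lay above wild-type arrays 1 and 3, and wild-type array 2 lay near or among the mutants.

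Leaving out the number 2 arrays of both genotypes, a setting chosen after seeing the data, gave 7 genes higher. Among all 7887 probe sets it gave 476 higher. The 7 genes were Lcp9, the 3 entries just named, Pcp, Cpr67B and Cpr65Av. Pcp read 7.39, 9.13 and 7.52 in wild type and 10.24, 5.21 and 9.32 in mutants, so that mutant array 2 lay below all wild-type arrays and the others above (limma adjusted p = 0.956 with all arrays, 0.0354 without the pair). Cpr67B read 9.51, 9.92 and 9.21 against 10.19, 10.99 and 10.39, groups that did not overlap (log2 0.97, limma adjusted p = 0.129). Of the 23 genes 3 were higher and 1 lower without overlap, against 13.9% and 13.1% of all probe sets.

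Some genes varied widely among the mutant arrays. Cpr78E, a disc gene, read 3.28, 5.54 and 2.62 in wild type and 11.20, 7.56 and 3.43 in mutants. Lcp2 read 2.73, 9.75 and 3.34 against 10.56, 9.87 and 3.97, and Lcp3 3.50, 12.69 and 7.96 against 8.87, 11.28 and 5.90. The genotypes overlapped in all 3 genes, and the arrays of 1 genotype differed by several log2 units (limma adjusted p = 0.392, 0.613 and 0.935). Edg91 read 4.49, 6.12 and 6.35 in wild type and 3.44, 4.24 and 4.64 in mutants, with overlap (log2 -1.54, limma adjusted p = 0.209). With the replicate number as a block its limma adjusted p was 0.043, and each mutant array lay below the wild-type array of the same number.

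Of 60 cuticle-related genes outside the family tested in hindgut and tubules, 2 were higher and 1 was lower in mutants, near the 2.42% and 2.14% of all probe sets. The laccase gene stw read 7.76, 7.83 and 7.20 in wild type and 9.60, 9.84 and 9.35 in mutants, 4.01-fold higher without overlap (limma adjusted p = 0.00854). Gfat1, which makes the chitin precursor glucosamine 6-phosphate, was 1.68-fold higher (limma adjusted p = 0.0449). The tanning gene yellow-f2 was at least 3.58-fold lower (limma adjusted p = 0.048). The calls for Gfat1 and yellow-f2 were lost in 6 and 5 of the 6 fits that left out 1 array.

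The joint pattern that the series sought, higher with the transgene in discs and lower in mutant hindgut and tubules, was met by 0 cuticle genes. Among 7112 probe sets tested in both tissues 0.548% met it. Of the 20 cuticle genes higher in labelled MiT discs, 8 were tested in hindgut and tubules. None was called there in either direction, and their log2 changes ranged from -1.99 for Cpr47Ec to 2.86 for Lcp2. Of the 7 lower in discs 5 were tested, with changes from -0.07 to 0.63 and no call. Lcp9, the one gene called in hindgut and tubules, had a log2 change of -0.00 in the discs. The comparisons share no array and no variance estimate.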

How the data were processed

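Affymetrix Drosophila_2 arrays, 12 in all, were made from 500 ng of total RNA each, per the labels' protocols. The deposited values are log2 probe set levels made with GCRMA, per the submitters' processing notes, a method that removes background by probe sequence and sets the arrays to 1 distribution; the sources used here give no version. The authors' deposited ANOVA table gave gene symbols, adjusted p-values and a signed fold, stored as a score that runs control over labelled for the discs, per the file headers; it served for names and as 1 alternative setting. Its 12 columns of array values were not used.

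The 183 control probe sets of 18952 were left out, and names were updated through a RefSeq gene table (assembly Release 6), which held all 114 cuticle genes. The members and lists were chosen with earlier results of these data known. Tests used limma 3.58.1 under R 4.3.3 (1 mean per group, eBayes without trend or robust options, Benjamini-Hochberg adjustment over all probe sets in the fit, threshold 0.05). Each tissue was fitted on its own 6 arrays, over probe sets at log2 4 or more on at least 3 of them, because the mean replicate SD was 0.34 and 0.37 in hindgut-tubule groups and 0.19 and 0.15 in discs. The tissue comparison was fitted to all 12 arrays. Where the lower group held arrays under 4, a fold is a bound, written as at least N-fold, with each such array raised to 4. A called gene is one past the threshold. Named are the called cuticle genes, up to 15 a direction, and the brightest of each group. Genes with names of their own, such as Lcp9, and a few genes a list are named as well. Genes of the wild-type array 2 account, and e and Pu, were chosen after their values were seen. The 3 arrays a group limit the precision.

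Replicate numbers in the titles are shared between groups. In the hindgut-tubule samples the deviations of same-numbered arrays from their group means correlated at 0.32, 0.42 and 0.15. Those of arrays with different numbers ran from -0.43 to 0.36, so a pairing is not certain. The main fit did not pair the arrays there, and the replicate block served as an alternative. In the discs the correlations of same-numbered arrays were 0.36, -0.07 and -0.18 and the numbers were not taken as pairs. Alternatives were the filter, normalization, replicate block, test options, the authors' p-values, the second probe set of a gene and leaving out each array.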

Additional observations from a re-analysis of the deposited data

How the results depend on the processing

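In the discs, the main counts of 20 cuticle genes higher and 7 lower became 12 and 2 in 1 fit to all 12 arrays, 12 and 4 with no filter on dim probe sets, and 5 and 0 by the adjusted p of the authors' deposited table. They ranged from 13 to 21 and from 5 to 8 when 1 array was left out, the lowest count higher, 13, being without labelled MiT disc 2. With a replicate block the disc counts were 16 and 8, although the numbers share only a name there. In hindgut and tubules the 1 gene higher became 3 in 1 fit to all 12 arrays and 7 without the number 2 arrays of both groups, and ranged from 1 to 4 without 1 array. The 0 genes lower became 1 with the replicate block, and stayed 0 without any 1 array. The replicate block changed no other call of a cuticle gene there, and the call for Gfat1 was lost under it. The 30 genes higher in control discs ranged from 27 to 34 without 1 array and from 25 to 30 in the other settings. Over all probe sets that count, 4129, ranged from 3894 to 4064 without 1 array and from 3669 to 4158 in the other settings. The 1 gene higher in wild-type hindgut-tubule samples became 2 with a random replicate block and 2 with equal array medians, and ranged from 1 to 5 without 1 array (5 without wild-type array 1, 3 without wild-type array 3). The joint pattern held for 0 genes in all 21 settings run. The causes of these shifts were not tested. Over all probe sets, 1 fit to all 12 arrays called 619 higher and 457 lower in discs, against 1181 and 1381, and 702 and 626 in hindgut-tubule samples, against 191 and 169. The authors' table called 449 and 305 in discs and 485 and 438 in hindgut-tubule samples. Leaving out 1 labelled MiT disc gave as few as 719 lower in discs, and leaving out 1 hindgut-tubule array gave as few as 63 higher and 67 lower there, against 476 and 381 without both number 2 arrays. No named result reversed while called. Signal near the floor limits all genes under log2 4, where levels are not told apart from background.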
